A study of Drosophila melanogaster with 2 samples.

Results

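The digestive enzyme genes of Drosophila melanogaster were taken from the gene annotation by symbol: the Jonah serine proteases (Jon and a digit), the trypsins (ending in Try), the maltases (Mal-A and Mal-B), the lysosomal alpha-mannosidases (LMan) and the amylases (Amy-). The rule found 45 of 13945 protein-coding genes, made up of 16 Jonah proteases, 11 trypsins, 10 maltases, 6 mannosidases and 2 amylases. Digestive proteases and carbohydrases are made mainly by enterocytes, the absorptive cells of the midgut, where trypsins and Jonah proteases cut dietary protein, amylases cut starch and maltases release glucose from the products. The GATA factor GATAe is known to drive genes of the endoderm and the mature midgut in this fly. Capicua (cic) is an HMG-box repressor that ERK signalling switches off, and in the adult midgut it is known for holding back the division of intestinal stem cells.

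Binding of Capicua was measured by chromatin immunoprecipitation and sequencing (ChIP-seq) in whole adult flies, males and females pooled, of unknown age. The single group was a transgenic line that stably carries cic with GFP at its C-terminal end, precipitated with an antibody against GFP, in 2 biological replicates numbered 1 and 3. Whether the replicates came from separate cultures is not stated, so their spread may be technical in part. No second genotype or treatment was analysed here, and the files hold neither read counts nor RNA, so the depth of each library and the gut character of the genes could not be checked. Because whole flies were used, strong binding in a few cells and weak binding in many cannot be told apart.

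Of the 45 genes, 19 (42.2%) had a promoter summit in the authors' list of reproducible peaks, at most 1000 bp from a transcript start, while 30.5% of all protein-coding genes did. Despite its name, that list consists of the 7152 highest-scoring entries of the relaxed list of both replicates pooled, so membership does not by itself show that a peak was in both. These promoter summits were mostly weak. The highest score per gene, which is the authors' peak strength with no fixed range, ran from 116 at etaTry to 475 at Jon25Bii, with a median of 152, against a median of 186 over all genes with such a summit. Only Jon25Bii, Jon99Ci, LManIII and Jon65Aiii were above that median. A further 21 genes had a summit only in the lower part of the pooled relaxed list, so that 40 of 45 (88.9%) had some promoter summit, against 67.0% of all genes. The other 5 genes had none in any of the lists used here: Jon65Ai, Jon66Ci, Jon66Cii, gammaTry and deltaTry.

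How far the 42.2% stands above other genes depended on what it was set against. Of the 45 genes, 43 had a single transcript start, as did 73.5% of all genes. Among genes with 1 start, which offer a single window, 17 of the 43 had a reproducible promoter summit (39.5%), against 23.5% of all such genes. When each summit was given only to the gene with the nearest start, 17 of 45 remained (37.8%), against 23.6%. With equally long lists of the strongest peaks of 1 replicate, the share came close to that of all genes: 31.1% against 29.8% without replicate 1, and 33.3% against 31.2% without replicate 3. Among the stronger 50% of the reproducible peaks it was 11.1% against 16.3%. The families differed in their counts. All of the amylases, 7 of 10 maltases and 4 of 6 mannosidases had a reproducible promoter summit. So did 4 of 16 Jonah proteases (25%) and 2 of 11 trypsins (18.2%). All genes of the last 2 families have 1 start, and the Jonah share was near the 23.5% of all such genes. Leaving out replicate 3 left 3 of 10 maltases, and leaving out replicate 1 left 5 and 1 of 11 trypsins. With either left out, 1 amylase remained. Neighbouring genes are not independent, and no test was made between the families.

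**Figure D1:**
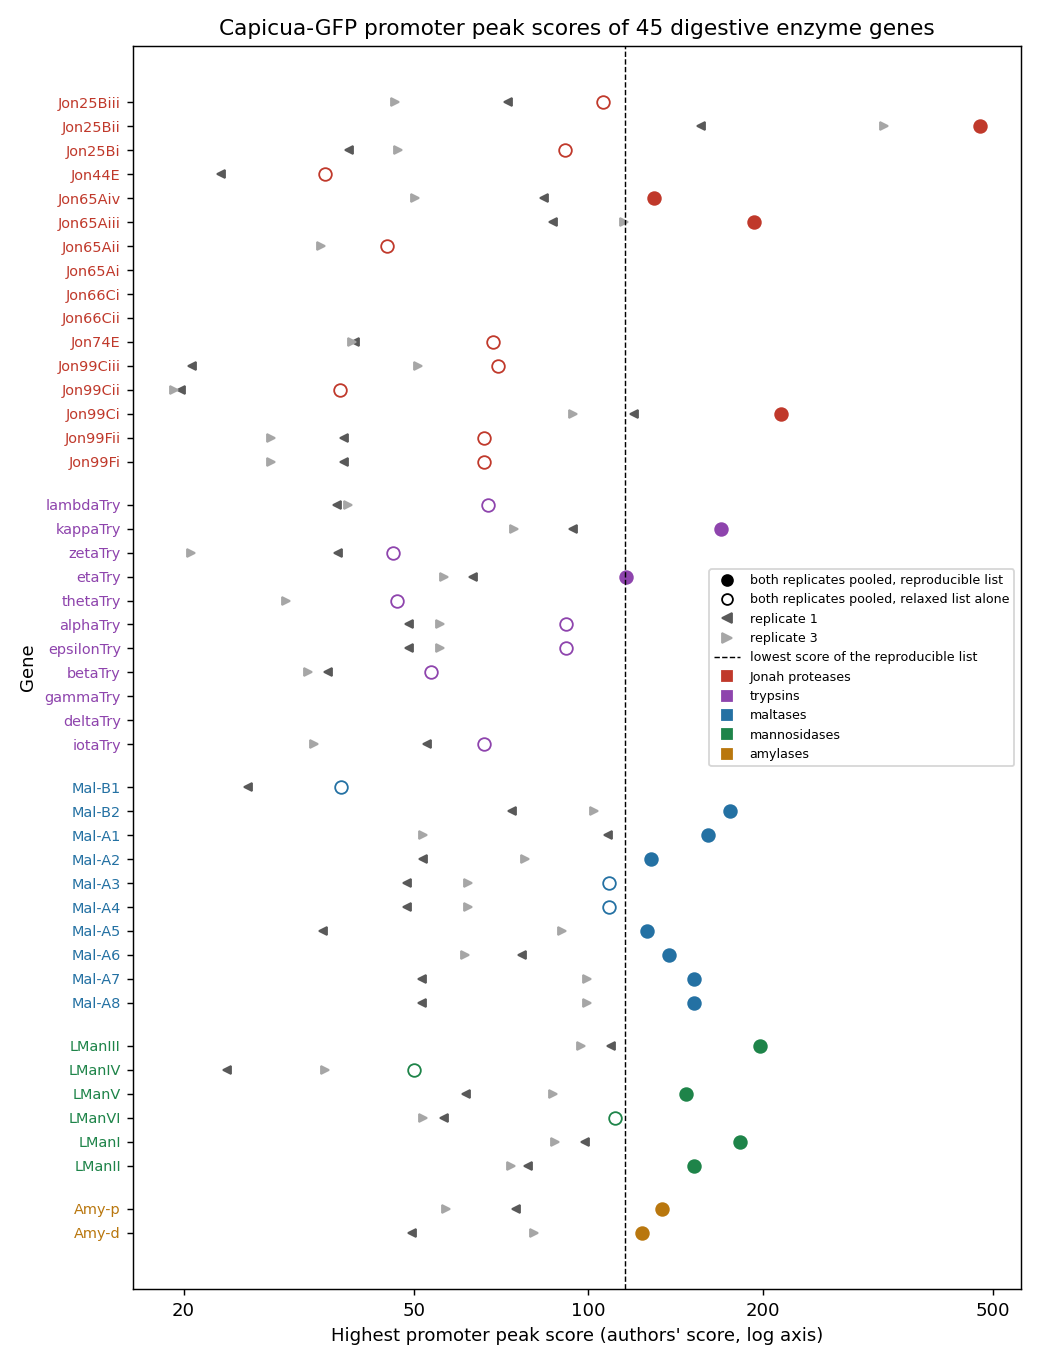
Highest promoter peak score of each of the 45 genes on a log axis, with filled circles for the reproducible list, open circles for genes with a summit in the relaxed list alone, and triangles for each replicate's own relaxed list. Jon25Bii stands apart at 475, the other filled circles lie between 116 and 215.5, close to the dashed line at 116, the lowest score of the reproducible list, and 5 genes have no symbol.

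Jonah proteases are serine proteases of the gut, encoded in small clusters. Jon25Bii had the highest score of all 45 genes, 475, which exceeded the scores of 92.5% of the genes with a reproducible promoter summit. In the replicates' own lists its promoter scored 156 in replicate 1 and 324 in replicate 3 (240 ± 119, SD, n = 2), so both replicates showed it, and they differed more than 2-fold. Its summit lay 283 bp upstream of the start, and a second summit of 162 lay in the same region 499 bp upstream. Jon99Ci followed with 215.5 (120 in replicate 1 and 94.1 in replicate 3) and a summit 95 bp upstream. Jon65Aiii scored 194 (87.0 and 115.3 in replicates 1 and 3), with a summit 139 bp upstream. Jon65Aiv scored 130 (84.0 and 50.3), with a summit 314 bp upstream. In all 4 genes the summit was intergenic and nearest to the start of the gene itself.

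The sequences under the 2 strongest Jonah summits and before 5 Jonah starts are shown because they hold, or lack, TGAATGAA or TGAATGGA. These are binding octamers of Capicua, and other forms of its site were not sought. Capitals mark matches on either strand to these octamers, the GATA-factor site TGATAAG, the GAGA element GAGAGAG or the TATA box TATAAA. Other forms of the GATA-factor site were neither sought nor marked. Positions are dm6, and summit windows are on the plus strand.
Jon25Bii, chr2L:4953319-4953519, window around the summit: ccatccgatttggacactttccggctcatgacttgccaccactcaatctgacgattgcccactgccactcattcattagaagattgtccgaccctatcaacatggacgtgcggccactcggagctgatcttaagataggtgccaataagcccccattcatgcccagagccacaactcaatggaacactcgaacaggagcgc
Jon99Ci, chr3R:29926190-29926384, window around the summit: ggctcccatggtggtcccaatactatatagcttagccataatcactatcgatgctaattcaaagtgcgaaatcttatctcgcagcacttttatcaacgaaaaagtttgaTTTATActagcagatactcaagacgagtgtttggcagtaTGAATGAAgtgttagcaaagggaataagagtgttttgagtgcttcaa
Jon25Bii, chr2L:4953137-4953306, bases before the start, minus strand: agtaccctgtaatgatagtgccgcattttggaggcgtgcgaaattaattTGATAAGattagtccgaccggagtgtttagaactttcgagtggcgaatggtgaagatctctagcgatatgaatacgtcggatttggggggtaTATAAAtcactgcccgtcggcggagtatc
Jon65Aiv, chr3L:6038985-6039154, bases before the start, plus strand: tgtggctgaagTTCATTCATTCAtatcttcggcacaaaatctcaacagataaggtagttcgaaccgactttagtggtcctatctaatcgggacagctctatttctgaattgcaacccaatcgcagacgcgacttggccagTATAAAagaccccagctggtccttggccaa
Jon65Aiii, chr3L:6050587-6050756, bases before the start, plus strand: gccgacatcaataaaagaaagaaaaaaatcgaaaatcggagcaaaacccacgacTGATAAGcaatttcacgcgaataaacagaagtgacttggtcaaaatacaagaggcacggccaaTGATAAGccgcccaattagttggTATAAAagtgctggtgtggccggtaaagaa
Jon65Ai, chr3L:6054444-6054613, bases before the start, minus strand: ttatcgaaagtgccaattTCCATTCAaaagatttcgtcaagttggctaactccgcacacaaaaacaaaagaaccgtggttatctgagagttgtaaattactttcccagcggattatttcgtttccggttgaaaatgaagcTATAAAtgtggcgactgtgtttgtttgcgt
Jon66Cii, chr3L:8393650-8393819, bases before the start, minus strand: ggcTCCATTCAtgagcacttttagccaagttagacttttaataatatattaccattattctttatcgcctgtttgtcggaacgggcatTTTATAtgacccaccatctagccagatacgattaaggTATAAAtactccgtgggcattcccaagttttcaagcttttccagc
The strongest window, at Jon25Bii, held none of these sequences. The window at Jon99Ci held TGAATGAA, centred 58 bp from the summit, and TATAAA 18 bp from it. Before the start of Jon65Aiv, outside its summit window, 2 overlapping copies of TGAATGAA stood on the opposite strand, their first bases 159 and 155 bases upstream. Jon65Aiii had 2 GATA-factor sites, 116 and 53 bases upstream, and a TATA box 30 bases upstream. Jon65Ai and Jon66Cii had TGAATGGA on the opposite strand, 152 and 167 bases upstream, and neither had a promoter summit in any list.

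Of the other Jonah proteases, 9 had a relaxed promoter summit alone, with scores from 35.0 to 106. Jon25Biii, 106, and Jon25Bi, 91.1, flank Jon25Bii in its cluster. The former scored 72.8 in replicate 1 and 46.3 in replicate 3, and the latter 38.7 and 46.9. Jon99Ciii scored 69.9, with 20.7 in replicate 1 and 50.9 in replicate 3, and its neighbour Jon99Cii scored 37.3. Jon99Fi and Jon99Fii shared a summit of 66.04 between their divergent starts. The promoter summit of Jon74E, 68.4, was nearest to the start of CG7542, the only gene outside the 5 families that lay closer to such a summit. Jon65Aii scored 44.9 and had a summit in replicate 3 only, at 34.6. Jon44E scored 35.0, with a summit 949 bp downstream of the start and in replicate 1 only, at 23.2.

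Trypsins cut proteins after lysine and arginine. Those with a symbol ending in Try were all encoded in a cluster of 20698 bp on 2R (from 11336840 to 11357537). Of the 11 genes, kappaTry scored 170 (94.2 in replicate 1 and 74.6 in replicate 3), with a summit 55 bp upstream of the start. The reproducible summit of etaTry was the weakest of the 19, 116 (63.2 and 56.3), just above the lowest score of the list, 115.8. A further 7 trypsins had relaxed summits from 46.0 to 91.5: alphaTry and epsilonTry shared 91.5, lambdaTry had 67.1, iotaTry 66.1, betaTry 53.5, thetaTry 46.7 and zetaTry 46.0. All but thetaTry had a summit in both replicates, between 20.6 and 55.4, and thetaTry in replicate 3 only, at 30.1. In 4 of these 7 the summit was downstream of the start: at betaTry it lay in the coding exon, and at thetaTry, epsilonTry and iotaTry between 870 and 989 bp away. The strongest summit of the whole trypsin cluster counted for none of its genes. It scored 290 (118.5 in replicate 1 and 174.5 in replicate 3) and lay in intergenic sequence on 2R at 11343917, 1157 bp upstream of thetaTry. Within 100 bp of it lay a GATA-factor site and no match to the Capicua octamers sought here.

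Maltases are alpha-glucosidases. The 8 Mal-A genes stand on 2R from 8449664 to 8473961, and 6 of them had a reproducible promoter summit. Mal-A1 scored 161 (108 in replicate 1 and 51.9 in replicate 3), and Mal-A7 and Mal-A8, which are divergent, shared a summit of 152 (51.7 and 99.6). Mal-A6 scored 138 (76.9 and 61.3), Mal-A2 128 (51.8 and 77.8) and Mal-A5 126 (34.8 and 90.2). The scores of the 6 genes lay close together in the pooled list, but the replicates disagreed on their order, with Mal-A1 the highest in replicate 1 and Mal-A7 and Mal-A8 in replicate 3. Mal-A2, Mal-A5, Mal-A7 and Mal-A8 had no promoter summit among the 7152 strongest of replicate 1, nor Mal-A1 and Mal-A6 among those of replicate 3. The remaining genes of the cluster, Mal-A3 and Mal-A4, shared a relaxed summit of 109, just under the threshold. Across the cluster with 1000 bp to each side, the reproducible list held 6 summits, or 2.28 per 10 kb. Over the 6 chromosome arms it held 0.534 per 10 kb, a value not matched for the density of starts. Of the 6 summits of the cluster, that with a score of 147.5 (56.1 in replicate 1 and 92.1 in replicate 3) lay in the 3' UTR of Mal-A7. It was 2344 bp from the start of Mal-A7 and was counted for no gene. Mal-B1 and Mal-B2 lie within the bounds of the phosphodiesterase gene Pde1c on 2L. Mal-B2 scored 176 (73.8 in replicate 1 and 102.5 in replicate 3) from a summit 140 bp downstream of the nearer of its 2 starts. It was the only one of the 19 whose summit was not upstream of the nearest own start. Mal-B1 had a relaxed summit of 37.4, seen in replicate 1 only.

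The amylase genes Amy-p and Amy-d, divergent copies 4460 bp apart on 2R, both had a reproducible summit upstream of the start. Amy-p scored 134 (75.1 in replicate 1 and 56.8 in replicate 3) from a summit 106 bp upstream. Amy-d scored 124 (49.6 and 80.7) from a summit 164 bp upstream, so the order of the pair was opposite in the replicates. Amy-d was not among the genes found without replicate 3, nor Amy-p without replicate 1. Another summit, of 130 (72.8 and 59.5), lay between them, 1653 bp from the start of Amy-p.

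**Figure D2:**
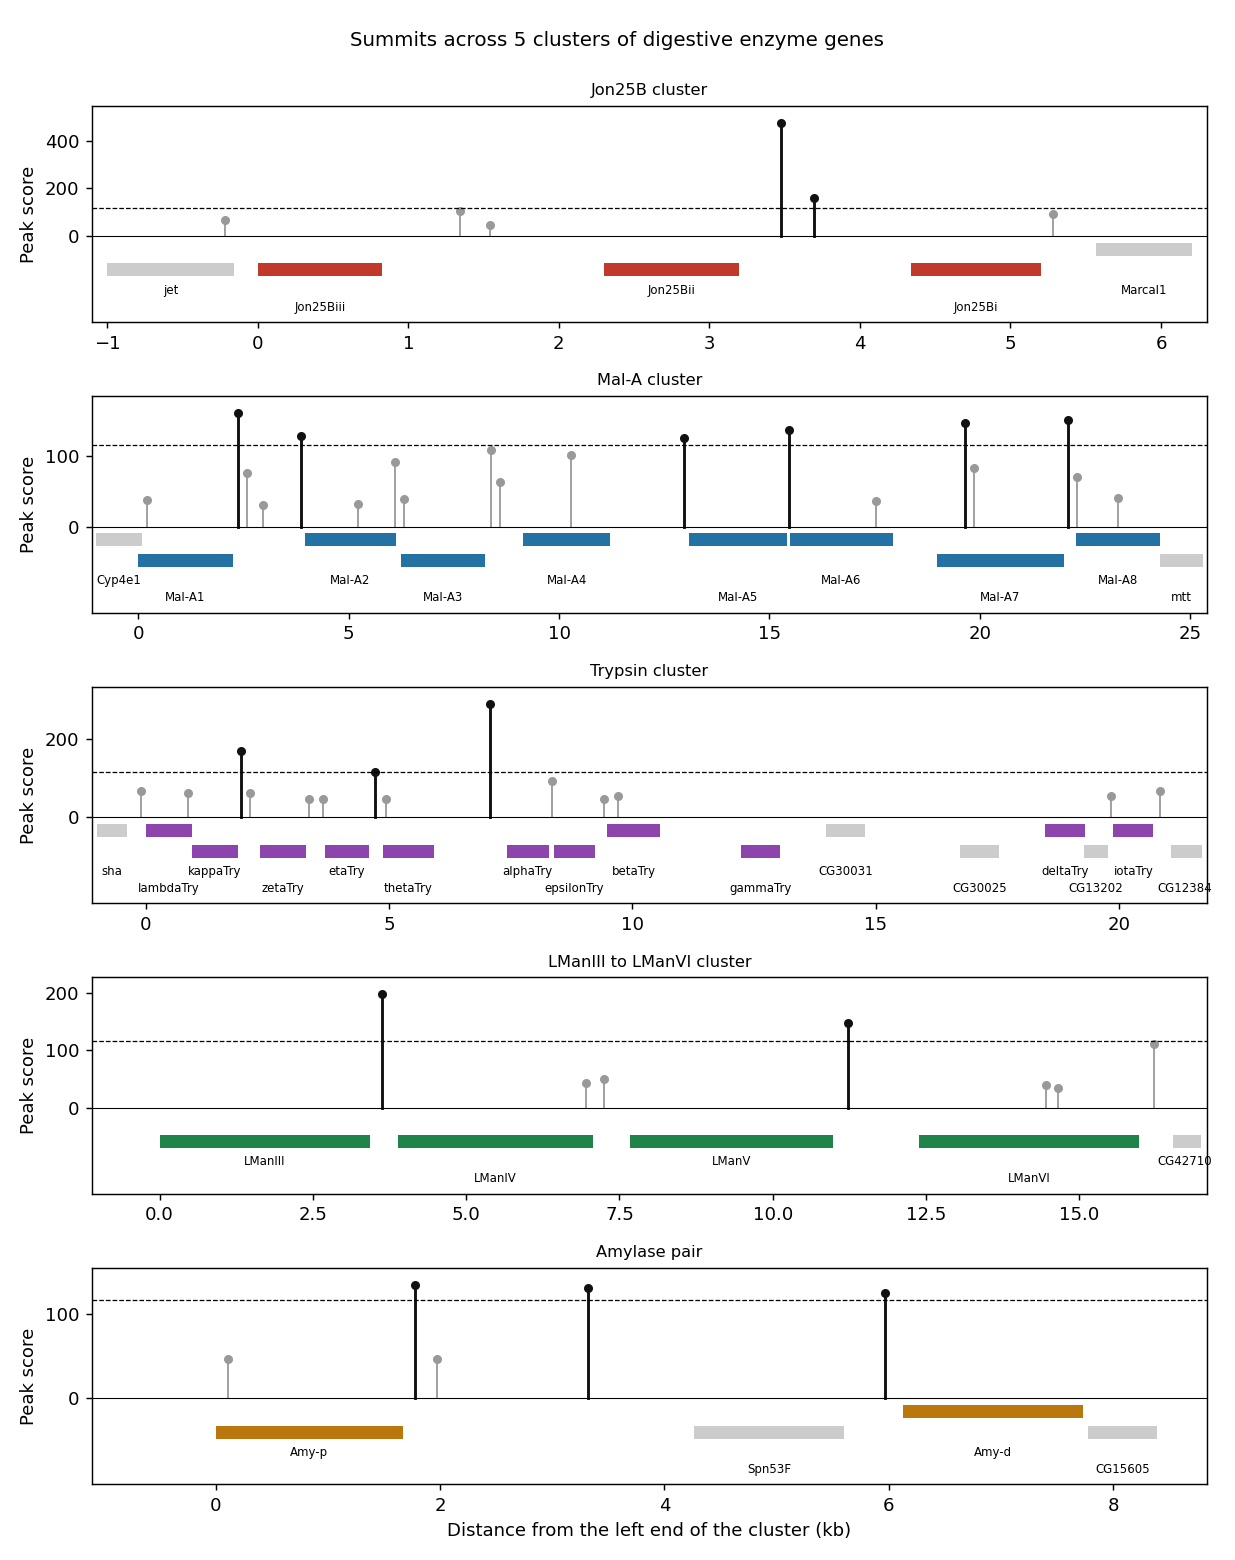
Peak scores of all summits of the relaxed list across 5 gene clusters, by distance in kb from the left end of each cluster, with black stems for the reproducible list and grey stems for the rest. Bars below are genes, the upper row on the plus strand and the lower on the minus strand, coloured for the 5 families and grey for other genes, and the dashed line is the lowest reproducible score. In the Mal-A cluster the black stems stand at 126 to 161, with 1 of 6 over 1 kb from any start, whereas in the trypsin cluster the strongest stem, 290, stands over 1 kb from any start.

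Lysosomal alpha-mannosidases trim mannose from glycans in acidic compartments. All 6 genes are on 2L, in a cluster of 4 (8765273 to 8781252) and a divergent pair (10452677 to 10462472), and 4 had a reproducible promoter summit. LManIII scored 198 (109 in replicate 1 and 97.0 in replicate 3) and LManI 183 (98.8 and 87.5). LManII scored 152 (78.7 and 73.5) and LManV 147 (61.4 and 86.8). For LManI, LManII and LManIII the replicates differed by 1.07 to 1.13-fold. Of the rest, LManVI scored 111 (56.3 and 51.9), the highest score under the threshold, and LManIV scored 49.98 (23.8 and 35.1). The summit of LManI was intronic, 72 bp upstream of the inner of its 2 starts, and that of LManII lay nearer to the outer start of LManI (177 bp) than to its own (240 bp).

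The window around the LManI summit, clipped where an untranslated exon begins, and the stretches before 4 mannosidase starts show an octamer in the former and a shared layout in the latter. Capitals have the same meaning as in the Jonah sequences.
LManI, chr2L:10456199-10456308, window around the summit: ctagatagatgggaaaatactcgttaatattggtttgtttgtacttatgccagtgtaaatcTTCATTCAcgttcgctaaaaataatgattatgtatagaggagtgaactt
LManIII, chr2L:8768711-8768880, bases before the start, minus strand: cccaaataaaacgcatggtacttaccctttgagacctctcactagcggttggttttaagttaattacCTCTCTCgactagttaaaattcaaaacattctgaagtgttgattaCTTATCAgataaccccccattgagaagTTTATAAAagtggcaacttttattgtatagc
LManIV, chr2L:8772345-8772514, bases before the start, minus strand: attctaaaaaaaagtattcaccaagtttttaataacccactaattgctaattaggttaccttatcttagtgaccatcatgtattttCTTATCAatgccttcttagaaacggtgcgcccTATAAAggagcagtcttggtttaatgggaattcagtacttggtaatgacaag
LManV, chr2L:8776264-8776433, bases before the start, minus strand: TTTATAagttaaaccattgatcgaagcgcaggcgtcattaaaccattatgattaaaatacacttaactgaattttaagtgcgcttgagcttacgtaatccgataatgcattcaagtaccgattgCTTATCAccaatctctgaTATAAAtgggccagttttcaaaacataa
LManVI, chr2L:8781253-8781422, bases before the start, minus strand: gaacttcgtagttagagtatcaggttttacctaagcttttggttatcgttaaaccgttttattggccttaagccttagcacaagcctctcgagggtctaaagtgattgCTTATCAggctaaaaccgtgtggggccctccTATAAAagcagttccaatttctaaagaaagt
TGAATGAA at LManI was centred 56 bp from the summit. In the cluster of 4, each gene had a GATA-factor site on the opposite strand, with its first base 46 to 84 bases upstream, followed by a TATA box on its own strand 28 to 52 bases upstream. The layout was there in LManIV and LManVI, which had no reproducible summit, as well as in LManIII and LManV, which did.

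The strongest summits lay upstream of the nearest own start at all of the 19 genes except Mal-B2. Upstream summits were found in 18 of 19 (94.7%), against 68.4% of all genes with a reproducible promoter summit, and 18 of 19 were within 300 bp of the start, against 70.4%. Among genes with 1 start, which leave fewer starts to choose from, the shares over all such genes were 73.2% upstream and 69.2% within 300 bp. Of the 17 enzyme genes with 1 start and a reproducible promoter summit, 17 were upstream and 16 within 300 bp. The median distance was 131 bp over the 19 genes, against 146 bp over all genes with such a summit. Behind the 19 genes stood 18 distinct summits in 18 regions, and 16 of the 18 were intergenic and 2 intronic. Over all 4626 promoter summits, 30.5% were intergenic, 34.6% intronic and 27.8% in 5' UTRs. These positions were compared as a description, without a test.

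**Figure D3:**
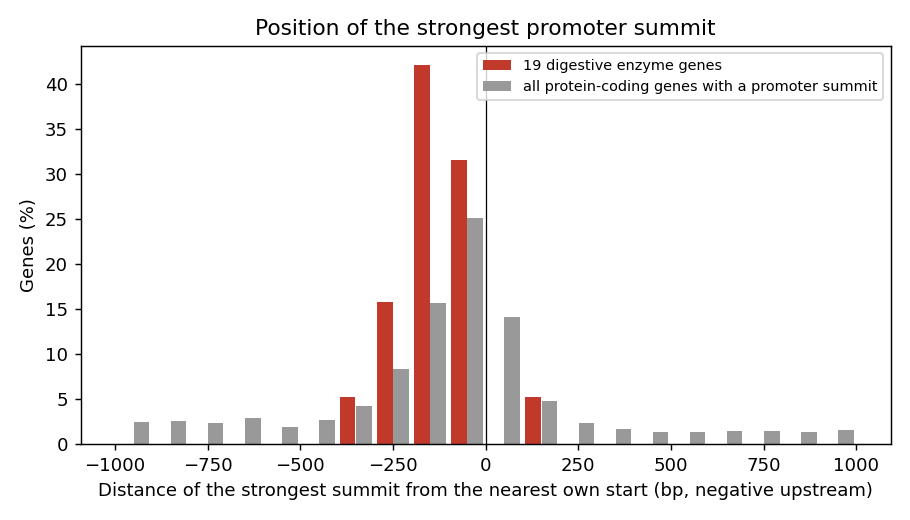
Position of the strongest promoter summit relative to the nearest own start, in 100 bp bins, as a share of the 19 digestive enzyme genes (red) and of all protein-coding genes with a reproducible promoter summit (grey). The red bars lie between 400 bp upstream and the start, with 42.1% in the bin from 200 to 100 bp upstream, except for 1 gene downstream, Mal-B2, while the grey bars spread over the whole window.

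Both replicates had a relaxed promoter summit at 36 of the 45 genes (80.0%), against 61.2% of all genes. Replicate 1 was higher at 19 of these and replicate 3 at 17, so neither stood above the other as a whole. The families differed: replicate 3 was the higher at 7 of 9 maltases. Replicate 1 was the higher at 7 of 11 Jonah proteases, 5 of 8 trypsins and 4 of 6 mannosidases, and each replicate at 1 amylase. Across the 36 genes the replicates' scores had a Spearman's rho of 0.609, against 0.825 across 8540 genes, a range that reaches to much higher scores. Neighbouring genes share summits and all scores of a replicate share a library, so these are descriptions. The median difference between replicates was 1.32-fold, against 1.27-fold over all genes, and 4 of the 36 genes differed more than 2-fold (11.1%, against 6.36%). Replicate 3 was the higher at Mal-A5 (2.59-fold), Jon99Ciii (2.46-fold) and Jon25Bii (2.07-fold), and replicate 1 at Mal-A1 (2.08-fold).

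**Figure D4:**
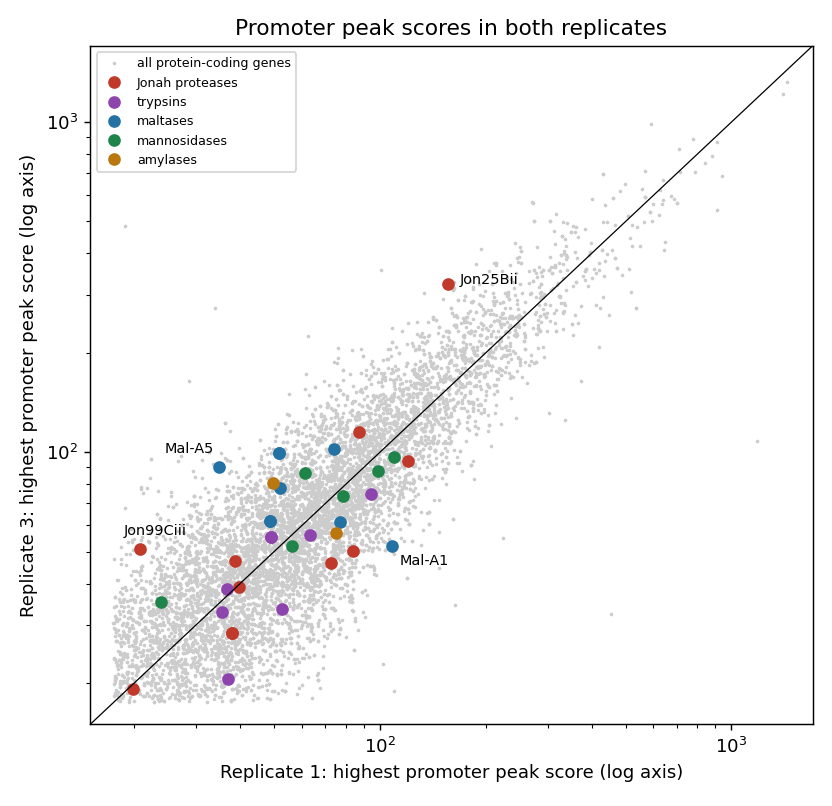
Highest promoter peak score in replicate 1 (x axis) and replicate 3 (y axis), both on log axes, for 36 digestive enzyme genes (coloured by family) and for all protein-coding genes with a summit in both (grey), with the line of equal scores. The coloured points lie on both sides of the line and within the grey cloud, and Jon25Bii, Mal-A5 and Jon99Ciii lie above it and Mal-A1 below it by over 2-fold.

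Matches to the TATA box were found in most of the 45 promoters, though in neither amylase promoter. Exact matches to TGATAAG, the only form of the GATA-factor site counted, were found in a minority. In the window from 250 bases before the start to 50 after, TATAAA on either strand was in 35 of 45 (77.8%), against 45.8% of all promoters. Counted on the strand of the gene with its first base 20 to 40 bases upstream, a position chosen after the values were seen, it was in 24 of 45 (53.3%), against 7.79% of all genes. TGATAAG was in 16 of 45 (35.6%), against 6.89%, and 13 genes had both (28.9%), against 0.774%. By family, TGATAAG was in 4 of 6 mannosidases, 5 of 11 trypsins, 6 of 16 Jonah proteases, 1 of 10 maltases and 0 of 2 amylases. It was in 4 of the 19 genes with a reproducible summit (21.1%) and in 12 of the 26 without (46.2%). No test was made of these shares, since genes of a cluster are related copies.

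Matches to the Capicua octamers sought here were few, and other forms of the Capicua site were not counted. TGAATGAA was in the promoter windows of Jon65Aiv and Jon99Ci (4.44% of 45, against 2.88% of all genes), and TGAATGGA in those of Jon65Ai, Jon66Cii and betaTry (6.67%, against 1.33%). The latter 3 genes had no reproducible promoter summit, and the first and second of them had no relaxed one either. Within 100 bp of the 18 distinct summits, TGAATGAA was found at 2 (11.1%), Jon99Ci and LManI, against 3.57% of all promoter summits, and TGAATGGA at 0, against 1.25%. TGATAAG was at 2 of the 18 (11.1%, against 9.38%), GAGAGAG at 1 (5.56%, against 9.43%) and TATAAA at 7 (38.9%, against 22.4%). A match describes the letters in a window and says nothing of what is bound there.

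**Figure D5:**
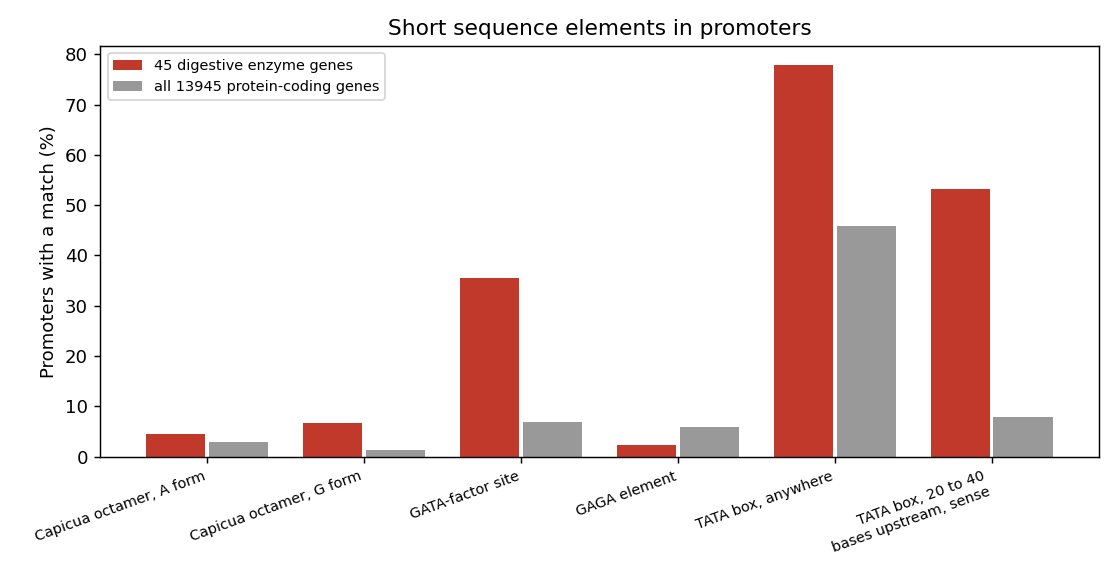
Share of promoters with a match to each short sequence element, for the 45 digestive enzyme genes (red) and all 13945 protein-coding genes (grey), from 250 bases before the start to 50 after except in the last pair. GATA-factor sites of the form TGATAAG were in 35.6% of the red promoters, against 6.89% of the grey. TATA boxes 20 to 40 bases upstream on the sense strand were in 53.3%, against 7.79%. The octamer forms were in 4.44% against 2.88% (TGAATGAA, A form) and 6.67% against 1.33% (TGAATGGA, G form).

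Because several of these genes are near-identical copies, the share of 31-base words within 1000 bp of the start that recur in the genome was counted. It was over 10% at 13 of the 45 genes, against 4.73% of all genes. Of these 13, only Amy-p and Amy-d had a reproducible promoter summit (15.4%), where 5.91% of all genes with so many repeated words did. Of the 32 others, 17 did (53.1%), against 31.8%. The share was 94.5% at gammaTry and 83.0% at deltaTry, which had no promoter summit in any list, 10.6% and 10.9% at Jon66Ci and Jon66Cii, and 36.8% at each amylase gene. At Jon65Ai, which also had no promoter summit, it was 0.254%. How the authors' processing treated reads that fit several places is not given in the sources used here, and the part of repeats in the missing summits was not tested. Values of such copies, the amylases included, are uncertain.

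Other genes of the gut were counted for comparison, without a test. Of 17 other digestive enzyme genes (among them lipases, lysozymes and further serine proteases), 1 had a reproducible promoter summit (5.88%, against 30.5% of all genes), the serine protease gene Ser7, with 237 (122 in replicate 1 and 112 in replicate 3). A relaxed summit was there at 13 of the 17, against 67.0% of all genes, and 3 of the 17 had over 10% repeated words. Among 5 genes of the peritrophic matrix, which lines the midgut, 1 had a reproducible summit, Muc68D (215, with 121 and 96.0 in replicates 1 and 3). None of 9 genes of gut hormones had a reproducible summit, and 3 had a relaxed one, against 67.0% of all genes.

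Of 13 transcription factor genes of the gut, 6 had a reproducible promoter summit (46.2%, against 30.5% of all genes), a share not adjusted for the number of starts. Of those 6 genes, 5 scored higher than each of the 45 enzyme genes except Jon25Bii. The 4 highest are given here. Hnf4, a nuclear receptor of lipid metabolism, scored 710 (384 in replicate 1 and 332 in replicate 3), and Mondo, a sugar-sensing factor, scored 518 (247 and 272). GATAe scored 457 (227 and 232), and sug, which encodes the sugar-responsive factor Sugarbabe, scored 378 (157 and 231). The lower replicate of each of these 4 was no lower than that of Jon25Bii, 156. The share of 46.2% thus includes Hnf4, Mondo and sug, which are factors of lipid or sugar metabolism. The genes of the list without a reproducible promoter summit were cad, lab, Ptx1, esg, nub, pros and Sox21a.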

How the data were processed

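The text deposited beside the peak lists says that the authors made, on dm6, a relaxed list for each replicate and for both pooled, with a control alignment, and a list thresholded by irreproducible discovery rate, called reproducible here. Each relaxed list held 30000 entries and the reproducible list 7152, all of them among the 7152 pooled entries with the highest scores. How reads were aligned and peaks called was not given in the sources used here. Every score is a peak strength as the authors deposited it, with no stated scaling for depth. Pooled scores were about the sum of both replicates' (median ratio 0.985 over the genes described), so they are not on the scale of a single replicate. Chromatin was sonicated to 200 to 800 bp, per the labels. The dm3 lists were not used.

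Genes and starts came from Ensembl release 115, restricted to protein-coding genes of the 6 major arms, and sequence from RefSeq Release 6 (dm6). A promoter summit lies within 1000 bp of any start, and a gene takes its highest score. A summit may count for several genes. Motifs were sought on both strands, in promoters at the 5'-most start. A cluster joins genes under 20000 bp apart. No significance test was made: with 1 group and 2 replicates none over samples is possible, and the genes, the lists and the motifs were chosen with earlier results of these data known. Symbols matched for 17 of the 18 names of the list of other digestive enzymes. Named genes follow a fixed rule: every gene of the 5 families, up to 4 per other list, and every gene nearest to a summit counted for a member. The gut transcription factor genes without a reproducible promoter summit are named besides. The code that assigns summits was checked on simulated data, where 200 of 200 planted summits were recovered over 13945 genes. The planted summits lay within the window and outscored all real ones, so this does not test assignment at real scores. Computation was in Python 3.11.15 with pandas 2.3.3, numpy 2.4.6 and scipy 1.17.1, and plots in matplotlib 3.10.9.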

Additional observations from a re-analysis of the deposited data

How the results depend on the processing

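The count of genes with a reproducible promoter summit was 19 in the report, 19 within 500 bp of a start and with 1 summit per merged region, and 17 with the nearest start alone. Within 5 kb of a start it was 41 (91.1%, against 50.7% of all genes), with 13 Jonah proteases, 10 trypsins and a median score of 183 (212 over all genes with such a summit). Among the stronger 50% of peaks it was 5, with 0 trypsins, 0 maltases, 2 mannosidases, 0 amylases and a median score of 198, and in the pooled relaxed list 40, with 13 Jonah proteases, 9 trypsins and a median of 110. Leaving out either replicate gave 14 to 15 genes, 14 of the 19 each time. The losses without replicate 1 were Amy-p, Jon65Aiv, Mal-A1, Mal-A6 and etaTry, and without replicate 3 Amy-d, Mal-A2, Mal-A5, Mal-A7 and Mal-A8, where Jon25Biii was gained. That left 1 to 2 trypsins, 3 to 5 maltases, 3 to 5 Jonah proteases, 4 mannosidases and 1 amylase, with medians of 84.0 to 92.2 on the scale of 1 replicate. The loss of maltases without replicate 3 took them from 7 to 3. Matching replicates by overlap kept rho within 0.1, and 33 genes had a summit within 500 bp in both replicates, against 36. At summits in place of promoters, shares were 0% for TGAATGGA, 11.1% for TGATAAG and 38.9% for TATAAA, windows that differ in place and number of genes. Genes with 1 start, and genes with few repeated words, both gave 17; these comparisons and the sense-strand TATA position were added after seeing the data. Of 126 scores of single genes recomputed under these settings, 96 moved by less than the SD between replicates. Of these 96, the 19 in the pooled relaxed list and the 5 among the stronger peaks could not move. The 19 with 1 summit per merged region could hardly move, since the highest summit is kept. The 96 are therefore no measure of robustness. Of the 30 that moved, 27 did so without a replicate, by construction. No paired analysis was possible because there is 1 group. Depth is unknown, so nothing can be said of summits too weak to be listed.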
